A study of Homo sapiens with 6 samples.

Results

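The genes described here are 43 interferon-stimulated and viral RNA-sensing genes, measured in LNCaP prostate cancer cells and in a derivative that is resistant to enzalutamide. The genes were chosen by name and not by a limit on their values, but with earlier results of these data known. Of the 43, 42 had a row in the deposited table of 35554 genes, and XAF1 was not analysed here. A filter on low counts kept 19711 genes of the table for testing, among them 38 of the 42, and the other 4 (OAS2, CGAS, MX2 and SAMD9L) are described by their counts.

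LNCaP is an established line grown from a metastatic prostate carcinoma, and it depends on androgens. Enzalutamide blocks the androgen receptor. The resistant line, LNCaP-enzaR, was derived by the study from LNCaP under continuous exposure to the drug and later kept on less of it. Parental LNCaP (n = 3) and LNCaP-enzaR (n = 3) were each grown in 3 flasks and polyadenylated RNA was sequenced. Flasks of a line share its culture history, so p-values measure the spread between flasks and not between independently selected lines. The labels do not state whether the medium of the harvested flasks contained enzalutamide.

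Cells recognise viral nucleic acid through sensors in the cytosol. RIG-I (gene DDX58) and MDA5 (IFIH1) bind double-stranded or uncapped RNA and signal through MAVS on mitochondria, whereas cGAS binds DNA and signals through STING. Both routes activate IRF3 and IRF7, which switch on interferon genes. Secreted interferon binds receptors coupled to JAK kinases, and a complex that holds STAT2 and IRF9 then binds interferon-stimulated response elements in the promoters of interferon-stimulated genes, whose products block viral entry, translation and replication.

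The response element is the sequence feature that many of these promoters have in common, and it was found in promoters of genes that were higher, lower or not past the threshold in LNCaP-enzaR. Its core, GAAA followed by any pair of bases (NN) and GAAA again, was searched on both strands (on the other strand it reads TTTC, NN, TTTC) in the 250 bases upstream of RefSeq gene starts (GRCh38.p14), and overlapping matches were counted separately. RefSeq entries were matched for 31 of the 43 genes, with 41 starts in all. The core was in 22 of these 41 windows (53.7%) and in 1061 of 35116 windows (3.02%) over all RefSeq promoters. The core of the gamma-activated site, TTCNNNGAA, was in 8 of the 41 (19.5%) and in 6.57% of all promoters. The windows of 6 genes are shown, 5′ to 3′ along the gene, with each match in capitals. OAS3, IFIH1 and IFITM3 were lower in LNCaP-enzaR, IFIT1 and IFI6 were higher, and ISG15 did not reach the fold limit.
OAS3 (chr12:112938224-112938473, plus strand): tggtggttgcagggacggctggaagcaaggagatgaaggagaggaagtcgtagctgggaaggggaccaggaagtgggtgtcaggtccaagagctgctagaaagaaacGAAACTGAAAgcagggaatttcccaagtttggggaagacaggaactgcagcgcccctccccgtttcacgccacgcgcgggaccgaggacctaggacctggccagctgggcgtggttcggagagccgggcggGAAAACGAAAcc
IFIH1 (chr2:162318685-162318934, minus strand): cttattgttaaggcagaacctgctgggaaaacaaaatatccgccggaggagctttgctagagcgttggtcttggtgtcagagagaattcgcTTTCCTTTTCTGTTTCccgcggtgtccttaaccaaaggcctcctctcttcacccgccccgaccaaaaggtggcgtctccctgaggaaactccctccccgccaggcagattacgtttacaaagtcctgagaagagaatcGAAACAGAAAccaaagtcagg
IFITM3 (chr11:320861-321110, minus strand): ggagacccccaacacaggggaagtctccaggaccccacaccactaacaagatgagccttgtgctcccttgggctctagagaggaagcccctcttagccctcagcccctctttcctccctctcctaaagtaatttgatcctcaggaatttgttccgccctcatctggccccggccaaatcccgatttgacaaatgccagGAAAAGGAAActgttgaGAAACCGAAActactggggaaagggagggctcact
IFIT1 (chr10:89392373-89392622, plus strand): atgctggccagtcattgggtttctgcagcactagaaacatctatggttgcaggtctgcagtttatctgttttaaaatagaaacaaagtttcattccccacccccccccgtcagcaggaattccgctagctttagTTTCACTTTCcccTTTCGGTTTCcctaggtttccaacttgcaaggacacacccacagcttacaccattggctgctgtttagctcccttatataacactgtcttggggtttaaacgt
IFI6 (chr1:27672193-27672442, minus strand): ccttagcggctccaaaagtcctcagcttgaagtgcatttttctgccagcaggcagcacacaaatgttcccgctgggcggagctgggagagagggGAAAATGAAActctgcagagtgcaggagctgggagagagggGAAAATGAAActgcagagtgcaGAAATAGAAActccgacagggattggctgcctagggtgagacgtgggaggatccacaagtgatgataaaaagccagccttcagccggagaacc
ISG15 (chr1:1013247-1013496, plus strand): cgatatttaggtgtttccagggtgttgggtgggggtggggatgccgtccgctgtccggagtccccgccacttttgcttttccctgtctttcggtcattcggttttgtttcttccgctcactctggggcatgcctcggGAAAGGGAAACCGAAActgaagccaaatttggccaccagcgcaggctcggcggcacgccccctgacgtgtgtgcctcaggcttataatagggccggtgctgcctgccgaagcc

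By gene, the core was in 6 of the 9 genes with a promoter that were higher past the threshold, in 5 of the 7 that were lower and in 8 of the 13 that were tested and not past it. The element was therefore present on both sides of the comparison. A match describes these letters in this window, and binding was not measured.

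Libraries held 77759122 to 98616465 counts. LNCaP-enzaR replicate 1 stood farthest from its group, with a chi-square of counts of 31.4 and 39.8 per degree of freedom against the other two resistant libraries, compared with 5.88 to 9.82 for all other pairs of libraries of a line. Mitochondrial transcripts made up 6.72% to 7.06% of parental and 14.8% to 15.5% of resistant libraries. The 6 prostate luminal markers (KLK3, KLK2, FOLH1, STEAP2, KRT8 and KRT18) summed to 3496 to 3584 CPM (counts scaled to 1000000 per library) in parental and 2732 to 2867 CPM in resistant libraries. KLK3 was 8.45-fold lower and KRT8 2.23-fold higher, so the defining luminal genes were expressed in both lines but not at equal levels. The 6 immune cell markers summed to 0.0906 to 0.227 CPM, with no single value above 0.11 CPM and CD3E at 0 in 5 of 6 libraries. The 5 measured fibroblast markers summed to 14.1 to 17.3 CPM in parental and 6.73 to 7.24 CPM in resistant libraries, most of it COL1A1. LUM went the other way, at 0.324 to 0.598 CPM in parental and 1.24 to 1.71 CPM in resistant libraries, and DCN was at most 0.011 CPM in parental and 0.0232 to 0.227 CPM in resistant libraries. PDGFRA was at 0 in the 3 parental libraries. The part of these differences in the values given here was not tested.

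The members moved in both directions. Of the 38 tested members, 12 were higher and 10 were lower in LNCaP-enzaR past the threshold, which was an edgeR Benjamini-Hochberg adjusted p of at most 0.05 with a fold change of at least 1.5, and 16 were not past it. This is 57.9% of the members tested, beside 42.7% of all genes tested (23.3% higher and 19.5% lower). The median log2 fold change was 0.07 over the members and 0.01 over all genes tested, whereas the median size of the change, without its sign, was 0.96 and 0.57. At any fold, the adjusted p was at most 0.05 for 28 of the 38 and for 66.3% of all genes. Libraries of the lines did not overlap for 30 of the 38, and for 70.6% of all genes tested. In bulk RNA, fewer cells that express a gene and less RNA per cell cannot be told apart.

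Members were divided by their mean over the 6 libraries. Among 18 well expressed members (at least 5 CPM), 3 were higher, 6 were lower and 9 were not past the threshold. The same rule called 38.1% of all genes at this level (17.2% higher, 20.9% lower). The 3 that rose were IRF7, STAT2 and IFI6, and the 6 that fell were IFITM2, HERC6, OAS3, IFIH1, DTX3L and IFITM3. The mean takes in both lines, so level and direction are not independent. In LNCaP-enzaR alone, IFITM2 (0.323), HERC6 (1.35), IFIH1 (2.67) and OAS3 (4.66) had means under 5 CPM. They reached this level through their parental values, whereas the 3 that rose were above 5 CPM in both lines. At any fold, the adjusted p was at most 0.05 for 15 of the 18 and for 78.4% of all genes at this level. Of the 9 not past the threshold, the adjusted p was at most 0.05 with under 1.5-fold change for 6 (ISG20, IRF3, IFIT5, MAVS, EIF2AK2 and ISG15), and above 0.05 for CMPK2, PARP9 and USP18. The median log2 fold change was −0.16 over these 18 and −0.08 over all genes at this level. Libraries of the lines did not overlap for 16 of the 18, which holds for 80.7% of all genes this well expressed.

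**Figure D1:**
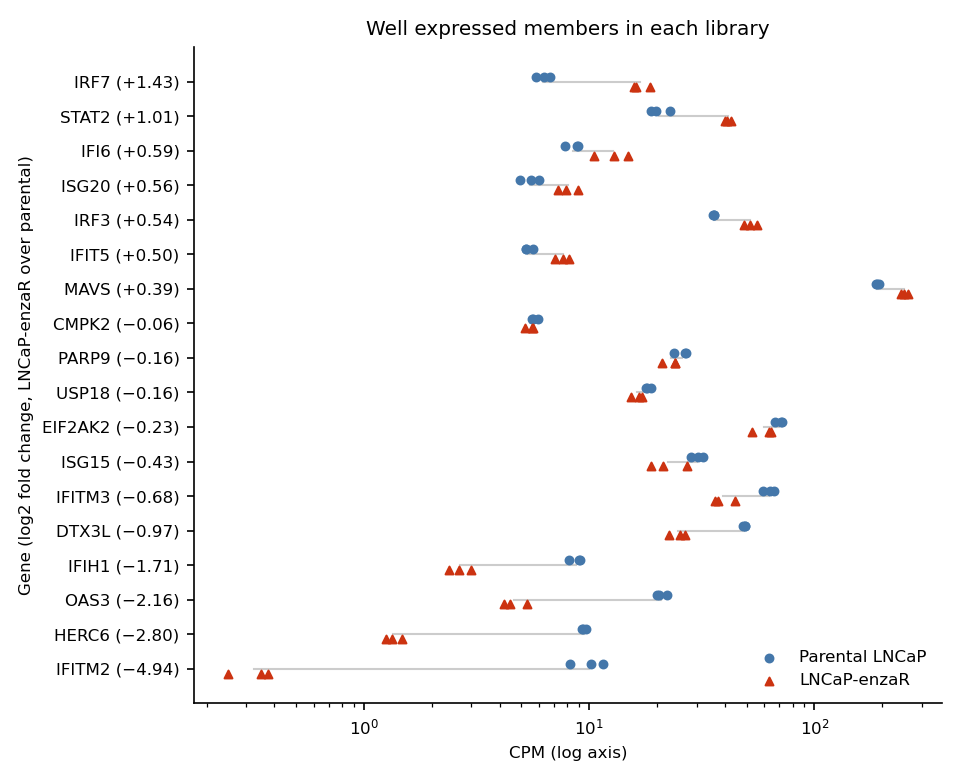
CPM (log axis) of the 18 well expressed members in each of the 3 parental (circles) and 3 LNCaP-enzaR (triangles) libraries, ordered by log2 fold change, which is printed beside each name; a grey line joins the group means. IRF7 and STAT2 at the top and the lower 6 genes are separated by clear gaps, while CMPK2 and PARP9 overlap between the lines.

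Among the low members, more were higher than lower. Of 12 low members (0.5 to 5 CPM), 7 were higher, 3 were lower and 2 were not past the threshold, beside 57.3% of all genes at this level (36.1% higher, 21.2% lower). Their median log2 fold change was 0.86, and that of all low genes was 0.21. Of 12 members near the floor (under 0.5 CPM), 8 could be tested, and 2 were higher and 1 was lower, beside 39.8% of all tested genes at this level (25.4% higher, 14.4% lower). The levels were set from the same libraries as the changes, and a difference between the levels in this balance was not tested.

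**Figure D2:**
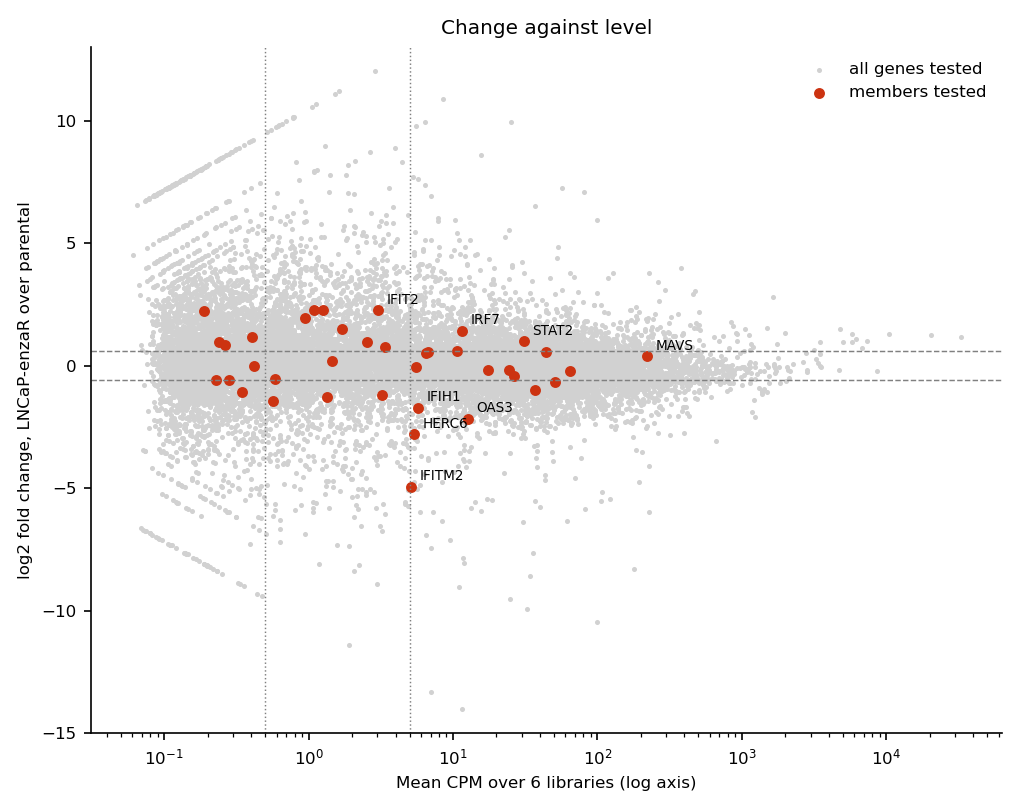
Log2 fold change (LNCaP-enzaR over parental) against mean CPM over the 6 libraries (log axis) for all 19711 genes tested (grey) and the 38 tested members (red). Dotted vertical lines stand at 0.5 and 5 CPM and dashed horizontal lines at 1.5-fold; the members lie within the cloud of all genes on both sides of 0, with IFITM2 lowest at −4.94.

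Per kilobase of exon (RPKM, with the exons of all annotated transcripts of a gene merged, which lowers the value of genes with many transcripts), the most abundant members in parental cells were ISG15 (34.9), IFITM3 (22.1), MAVS (16.2) and IRF3 (9.40). In LNCaP-enzaR the mean RPKM was 25.9 for ISG15, 21.3 for MAVS, 13.8 for IFITM3 and 13.7 for IRF3. IFI6 was close behind IRF3, at 9.08 in parental cells and 13.65 in LNCaP-enzaR. ISG15 encodes a ubiquitin-like modifier and IFITM3 a membrane protein that restricts viral entry. MAVS and IRF3 are an adaptor and a transcription factor of the RNA-sensing route. IFITM2 stood at 6.22 RPKM in parental cells and 0.201 in LNCaP-enzaR.

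Among the RNA and DNA sensors, 2 of 7 tested genes were higher, 3 were lower and 2 were not past the threshold. This is 71.4% past it, beside 42.7% of all genes tested (23.3% higher, 19.5% lower). Whether such a small list departs from that share was not tested. IFIH1 (ENSG00000115267.9, chromosome 2, 162267074 to 162318684, GRCh38), which encodes MDA5, the sensor of long double-stranded RNA, was measured at 9.12, 9.04 and 8.11 CPM in parental and at 2.39, 2.65 and 2.97 CPM in resistant libraries. The parental libraries were all higher, with a wide gap between the groups. IFIH1 fell 3.27-fold (log2 fold change −1.71, SE 0.114, edgeR adjusted p = 7.57e-09). Its promoter window is shown above, with 3 matches of the response element.

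DHX58, whose product LGP2 modulates signalling by the other RIG-I-like receptors, was also lower, at 1.07, 0.682 and 0.751 CPM in parental and 0.22, 0.181 and 0.504 CPM in resistant libraries (log2 fold change −1.45, SE 0.379, edgeR adjusted p = 0.00378). The groups did not overlap, and LNCaP-enzaR replicate 3 was the highest of the resistant libraries. Without it the log2 fold change was −2.05. DDX58 was near the floor, with 9 to 22 parental and 23 to 36 resistant counts, and was not past the threshold (log2 fold change 0.96, adjusted p = 0.0768). Leaving out parental replicate 2 gave 1.37 with an adjusted p of 0.0396, and 43.2% of its exonic bases are shared with exons of another annotated gene, so its value is uncertain. EIF2AK2, the kinase PKR that halts translation on double-stranded RNA, differed by 1.17-fold only (log2 fold change −0.23).

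The oligoadenylate synthetases make a second messenger when they bind double-stranded RNA, and they went in opposite directions. OAS3 (ENSG00000111331.14, chromosome 12, 112938051 to 112976460) was measured at 20.4, 19.9 and 22.1 CPM in parental and at 5.32, 4.20 and 4.44 CPM in resistant libraries. All parental libraries were far above all resistant libraries. OAS3 fell 4.47-fold (log2 fold change −2.16, SE 0.098, edgeR adjusted p = 1.24e-10). OAS1, which lies 4831 bases upstream on the same strand, was near the floor, with 18 to 25 parental and 44 to 58 resistant counts. It rose (log2 fold change 1.18, SE 0.338, edgeR adjusted p = 0.0069). OASL (ENSG00000135114.13, chromosome 12, 121017763 to 121039242), a family member without synthetase activity that enhances RIG-I signalling, was at 0.184, 0.462 and 0.662 CPM in parental and 2.53, 1.87 and 1.84 CPM in resistant libraries. Each resistant library was above each parental one, among which replicate 1 was lowest. OASL rose 4.82-fold (log2 fold change 2.27, SE 0.324, edgeR adjusted p = 2.37e-05), or by 1.89 on the log2 scale without parental replicate 1. OAS2, 1934 bases from OAS3, had at most 3 counts in parental and 6 in resistant libraries and was not tested.

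CGAS, the cytosolic DNA sensor, had 0 to 2 counts in parental and 0 in resistant libraries, where 3 counts correspond to 0.0302 to 0.0382 CPM. It was not detectable above this limit in either line. Of its adaptor STING1, 0.367, 0.572 and 0.471 CPM were measured in parental and 0.255, 0.249 and 0.171 CPM in resistant libraries, from 34 to 52 and 17 to 22 counts. All resistant libraries were below all parental ones, at a level near the floor. The log2 fold change was −1.06 (SE 0.374, edgeR adjusted p = 0.0218). The call was lost without parental replicate 2 (−0.90, adjusted p = 0.0916) and without LNCaP-enzaR replicate 3 (−0.89, adjusted p = 0.0796).

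MAVS (ENSG00000088888.18, chromosome 20, 3846799 to 3876123), the adaptor of the RNA-sensing route, had the highest CPM of all members, with 190, 193 and 188 CPM in parental and 261, 242 and 249 CPM in resistant libraries. The groups did not overlap and the resistant line was higher. The difference was 1.31-fold (log2 fold change 0.39, SE 0.052, edgeR adjusted p = 1.04e-05), under the fold limit.

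**Figure D3:**
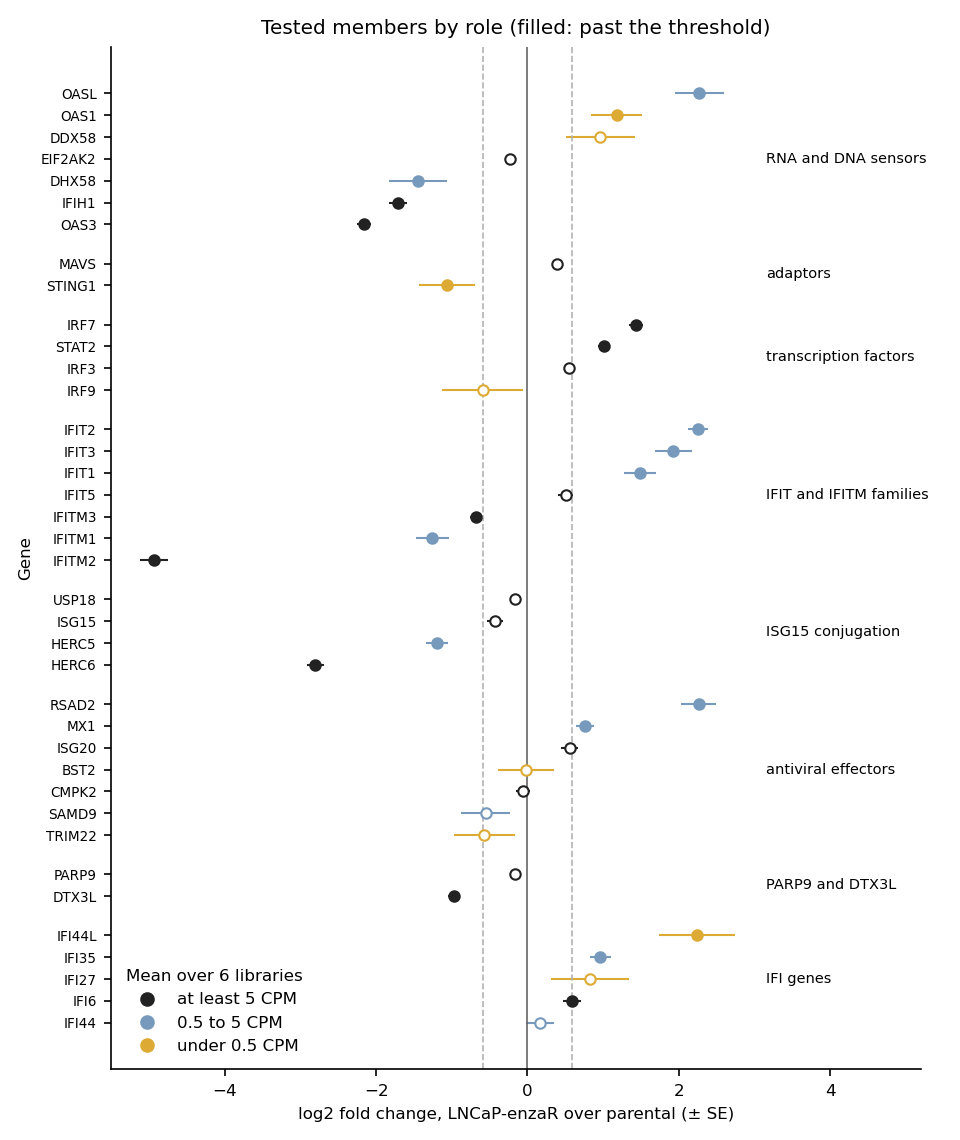
Log2 fold change (LNCaP-enzaR over parental) ± SE of the 38 tested members, grouped by role and coloured by mean level; filled points were past the threshold and dashed lines mark 1.5-fold. Sensors and the IFIT and IFITM families hold members on both sides, the ISG15 conjugation genes lie at or below −0.16, and no transcription factor or IFI gene was lower past the threshold.

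Of the 4 transcription factors, IRF7 and STAT2 were higher past the threshold, beside 42.7% of all genes tested past it (23.3% higher, 19.5% lower). Whether so short a list departs from that share was not tested. IRF7 (ENSG00000185507.21, chromosome 11, 612553 to 615983), which drives the later wave of type I interferon genes, was measured at 5.78, 6.28 and 6.67 CPM in parental and at 18.6, 16.1 and 15.9 CPM in resistant libraries. Each resistant library was well above each parental one. IRF7 rose 2.7-fold (log2 fold change 1.43, SE 0.094, edgeR adjusted p = 6.06e-09).

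STAT2 (ENSG00000170581.14, chromosome 12, 56341597 to 56360167) was at 19.7, 22.8 and 18.7 CPM in parental and 40.2, 40.9 and 42.5 CPM in resistant libraries. The groups were far apart and the resistant libraries were close to each other. STAT2 rose 2.02-fold (log2 fold change 1.01, SE 0.078, edgeR adjusted p = 3.5e-08).

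Its partner IRF9, the DNA-binding subunit of the complex, was near the floor at 0.378, 0.187 and 0.255 CPM in parental and 0.336, 0.102 and 0.111 CPM in resistant libraries. The groups overlapped. The difference did not pass the threshold (log2 fold change −0.59, SE 0.536, edgeR adjusted p = 0.353), at a depth of 9 to 35 counts per library. It was −1.34 (adjusted p = 0.0682) without LNCaP-enzaR replicate 1 and −0.28 without parental replicate 1. Of its exonic bases, 27.2% are shared with other annotated genes.

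IRF3, the factor activated first by MAVS and STING, was at 35.8, 35.7 and 35.5 CPM in parental and 55.6, 48.9 and 51.6 CPM in resistant libraries. All resistant libraries were higher than the 3 nearly equal parental ones. The difference of 1.46-fold (log2 fold change 0.54, SE 0.064, edgeR adjusted p = 3.64e-06) was just under the fold limit, and 0.59, past it, without LNCaP-enzaR replicate 2 (0.65 with upper-quartile scaling). Exons of BCL2L12 cover 19.4% of the IRF3 exonic bases.

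IFIT1, a protein of the IFIT family, binds viral RNA that lacks host-like cap methylation. The 4 IFIT genes lie on chromosome 10 between 89283694 and 89421605, and 3 of them rose past the threshold. By the same rule 23.3% of all genes tested were higher, and 36.1% of those at 0.5 to 5 CPM. Whether so small a family departs from these shares was not tested. IFIT2 was at 1.08, 1.03 and 1.04 CPM in parental and 4.68, 4.92 and 5.46 CPM in resistant libraries. It rose 4.77-fold (log2 fold change 2.25, SE 0.138, edgeR adjusted p = 2.87e-09), with no overlap. IFIT3 was at 0.335, 0.484 and 0.356 CPM in parental and 1.27, 1.75 and 1.46 CPM in resistant libraries, with each resistant library above each parental one (log2 fold change 1.93, SE 0.249, edgeR adjusted p = 8.6e-06).

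IFIT1 was at 0.648, 0.869 and 1.21 CPM in parental and 2.52, 2.28 and 2.78 CPM in resistant libraries, again without overlap (log2 fold change 1.48, SE 0.214, edgeR adjusted p = 2.62e-05). IFIT5, the best expressed of the family, was 1.42-fold higher (log2 fold change 0.50), under the fold limit, and past it (0.60) with upper-quartile scaling. The 3 IFIT genes past the threshold were thus the low ones, and all stayed under 6 CPM in LNCaP-enzaR. Of the exonic bases of IFIT2, 13.6% are shared with other annotated genes.

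The IFITM genes encode small membrane proteins that block fusion of viruses with the cell, and all 3 measured genes on chromosome 11 fell. Past the same threshold, 19.5% of all genes tested were lower. Whether these 3 genes depart from that share was not tested. IFITM2 (ENSG00000185201.17, 303655 to 309397) had the lowest log2 fold change of all members. It was measured at 8.24, 10.2 and 11.5 CPM in parental and at 0.348, 0.249 and 0.373 CPM in resistant libraries, from 763 to 929 and 22 to 37 counts. The lowest parental value was far above the highest resistant one. IFITM2 fell 30.6-fold (log2 fold change −4.94, SE 0.183, edgeR adjusted p = 1.49e-11).

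Its neighbour IFITM1, 643 bases away on the same strand, was at 2.11, 1.77 and 1.82 CPM in parental and 1.02, 0.578 and 0.786 CPM in resistant libraries. The parental libraries were all higher (log2 fold change −1.26, SE 0.22, edgeR adjusted p = 0.000159). IFITM3 (ENSG00000142089.17, 319676 to 329475), the most abundant of the 3, was at 59.3, 63.3 and 66.3 CPM in parental and 44.2, 36.2 and 37.4 CPM in resistant libraries. The groups did not overlap, although the fall was 1.60-fold (log2 fold change −0.68, SE 0.079, edgeR adjusted p = 2.81e-06) and was −0.58, short of the limit, with upper-quartile scaling.

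The IFITM genes are close copies, and how reads that fit several copies were counted is not stated. Of all 100-base windows in their transcripts, 6.81% of those of IFITM2, 20.3% of those of IFITM1 and 19.1% of those of IFITM3 also occur in transcripts of another gene. Other annotated genes also share 31.6% of the exonic bases of IFITM1, 16.3% of those of IFITM3 and 2.18% of those of IFITM2. For IFITM1 the main partner in shared windows was the overlapping locus ENSG00000288681 (8.28%), so its value is uncertain. The log2 ratio of IFITM1 to IFITM2 was −2.66 to −1.97 in parental and 1.08 to 1.55 in resistant libraries. By these counts, the order of the neighbours was inverted between the lines.

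**Figure D4:**
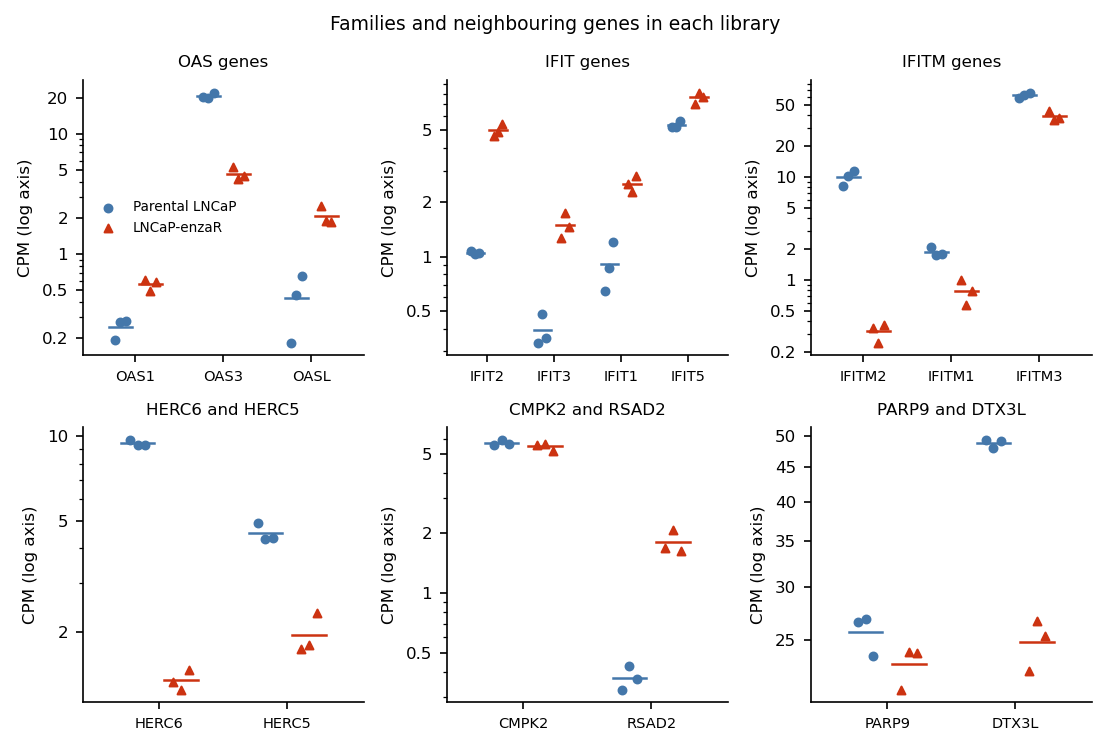
CPM (log axis, separate scale in each panel) of gene families and neighbouring genes in each parental (circles) and LNCaP-enzaR (triangles) library, with the group mean as a line. OAS3 fell while OAS1 and OASL rose, 3 IFIT genes rose while the IFITM genes fell, and in the pairs on the bottom row one gene changed more than its neighbour.

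ISG15 is a ubiquitin-like protein that is attached to other proteins after interferon. ISG15 itself was at 28.3, 30.4 and 32.1 CPM in parental and 27.2, 18.8 and 21.4 CPM in resistant libraries. The highest resistant library came close to the lowest parental one, and the difference was 1.35-fold (log2 fold change −0.43, SE 0.109, edgeR adjusted p = 0.00297), under the fold limit. USP18, the protease that removes ISG15, had a log2 fold change of −0.16 (adjusted p = 0.0673).

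HERC6 (ENSG00000138642.15, chromosome 4, 88378739 to 88443097), a ubiquitin ligase of the HERC family, was measured at 9.72, 9.34 and 9.29 CPM in parental and at 1.33, 1.25 and 1.47 CPM in resistant libraries. Replicates were close and the lines far apart. HERC6 fell 6.99-fold (log2 fold change −2.80, SE 0.114, edgeR adjusted p = 3.89e-11).

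HERC5, the main human ligase for ISG15, lies 14021 bases downstream of HERC6. It was at 4.91, 4.29 and 4.35 CPM in parental and 1.74, 1.80 and 2.34 CPM in resistant libraries. It fell 2.30-fold (log2 fold change −1.20, SE 0.145, edgeR adjusted p = 4.38e-06), with no overlap of the groups.

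Of 7 tested antiviral effectors, 2 were higher past the threshold (28.6%, beside 42.7% of all genes tested) and 5 were not past it. RSAD2, which encodes viperin, an enzyme that makes a chain-terminating nucleotide, was at 0.324, 0.429 and 0.369 CPM in parental and 1.69, 2.08 and 1.62 CPM in resistant libraries. Each resistant library was well above each parental one. RSAD2 rose 4.79-fold (log2 fold change 2.26, SE 0.229, edgeR adjusted p = 6.84e-07).

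CMPK2, the nucleotide kinase gene beside RSAD2 on the opposite strand, overlaps it by 1079 bases. It was better expressed and did not follow, with 5.55, 5.91 and 5.63 CPM in parental and 5.59, 5.64 and 5.19 CPM in resistant libraries. The groups overlapped (log2 fold change −0.06, adjusted p = 0.62, and 0.04 with upper-quartile scaling). Exons of RSAD2 cover 8.0% of the exonic bases of CMPK2, exons of CMPK2 cover 6.2% of those of RSAD2, and strand-specific counting is not stated.

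MX1, a GTPase that blocks viral ribonucleoproteins, was at 2.40, 2.47 and 2.61 CPM in parental and 4.33, 4.20 and 4.14 CPM in resistant libraries. It rose 1.70-fold (log2 fold change 0.76, SE 0.119, edgeR adjusted p = 5.84e-05), with the groups apart. MX2, 10626 bases away, had 6 to 9 parental and 2 to 23 resistant counts and was not tested. ISG20, an RNA exonuclease, was 1.47-fold higher (log2 fold change 0.56, adjusted p = 0.000444), under the limit, and it passed at 0.66 with upper-quartile scaling, 0.62 without parental replicate 3 and 0.63 without LNCaP-enzaR replicate 3.

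BST2 (tetherin), TRIM22 and SAMD9 were not past the threshold, with log2 fold changes of −0.02, −0.57 and −0.55, adjusted p-values of 0.966, 0.225 and 0.154 by edgeR, and overlapping groups. For BST2, at 23 to 47 counts, the sign turned under other settings. SAMD9L, next to SAMD9, had 0 counts in the parental libraries and at most 1 in the resistant ones.

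PARP9 and DTX3L encode an ADP-ribosyltransferase and a ubiquitin ligase that act as a complex, and their genes overlap by 240 bases at their starts on opposite strands. DTX3L (ENSG00000163840.10, chromosome 3, 122564338 to 122575203) was at 49.3, 48.1 and 49.1 CPM in parental and 22.5, 26.7 and 25.4 CPM in resistant libraries. The lines were far apart. DTX3L fell 1.97-fold (log2 fold change −0.97, SE 0.071, edgeR adjusted p = 2.11e-08). PARP9 was at 26.6, 26.9 and 23.7 CPM in parental and 21.1, 24.0 and 24.0 CPM in resistant libraries, overlapping, with a log2 fold change of −0.16 (adjusted p = 0.0855).

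Of the 5 measured IFI genes, 3 were higher (60.0%, beside 42.7% of all genes tested) and 2 not past the threshold. IFI6, a mitochondrial protein that inhibits apoptosis, was at 7.81, 8.81 and 8.89 CPM in parental and 14.9, 12.9 and 10.5 CPM in resistant libraries. The resistant libraries were all higher but spread widely. IFI6 lay at the fold limit (log2 fold change 0.59, SE 0.116, edgeR adjusted p = 0.000434), and was below it without parental replicate 1 (0.52), without LNCaP-enzaR replicate 1 (0.47) or replicate 2 (0.58). It was also below the limit with library totals (0.55), with no filter (0.58) and under the replicate block (0.58). Exons of LINC02574 cover 23.1% of the exonic bases of IFI6.

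IFI35 rose 1.95-fold (log2 fold change 0.96, SE 0.139, edgeR adjusted p = 2.58e-05), from 132 to 161 counts in parental to 272 to 354 counts in resistant libraries. IFI44L was near the floor, with 5 to 6 parental and 21 to 34 resistant counts. It was past the threshold (log2 fold change 2.24, SE 0.503, edgeR adjusted p = 0.00124), whereas its neighbour IFI44, 3650 bases downstream, had 95 to 141 and 115 to 163 counts and a log2 fold change of 0.17 (adjusted p = 0.438). IFI27 had 7 to 29 parental and 15 to 41 resistant counts, with overlap and an adjusted p of 0.171.

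Neighbouring and partner genes were compared by their log2 ratio within each library, which cancels the scaling between libraries. Of 12 pairs, 10 of neighbours and 2 chosen after their values were seen (UBA7 to UBE2L6 and OASL to OAS3), the ratio did not overlap between the lines for 10, each with p = 0.10 in a two-sided exact permutation test, the smallest that 3 against 3 libraries allow (adjusted p = 0.12). No pair could therefore pass the test. For single genes, the lines did not overlap for 70.6% of all genes tested and 80.7% of well expressed ones. Such a share was not computed for ratios of other gene pairs. The difference in log2 ratio was −3.36 for OAS3 to OAS1, 3.67 for IFITM1 to IFITM2, 2.33 for RSAD2 to CMPK2 and 1.60 for HERC5 to HERC6. It was −0.31 for IFIT3 to IFIT2 (exact p = 0.30) and −0.43 for IFIT1 to IFIT3 (exact p = 0.50), and these neighbours overlapped between the lines.

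The wider pathway was described with 78 further genes, of which 65 were measured and 59 tested. Of these, 20 were higher and 8 were lower past the threshold, 47.5% in all, beside 42.7% of all genes tested (23.3% higher, 19.5% lower). Of 10 interferon ligand genes, IFNL1 was measured and stayed untested, with 0 in the parental libraries and at most 0.104 CPM in a resistant one, and the other 9 were not analysed here.

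Among 9 receptors and kinases, 2 were higher and 1 was lower past the threshold (33.3%, beside 42.7% of all genes tested). The type I receptor subunits IFNAR1 and IFNAR2 had log2 fold changes of 0.04 and −0.14 (adjusted p = 0.669 and 0.575 by edgeR). Of the exonic bases of IFNAR2, 27.7% are shared with other annotated genes. The kinases JAK1 and TYK2, which bind these subunits, had log2 fold changes of 0.28 and 0.29. TYK2 had an edgeR adjusted p of 0.00173 but was under the fold limit. JAK2, which serves the interferon gamma receptor and cytokine receptors, was at 20.3, 19.2 and 19.0 CPM in parental and 51.8, 57.0 and 57.3 CPM in resistant libraries. The resistant libraries were far above the parental ones. JAK2 rose 2.83-fold (log2 fold change 1.5, SE 0.068, edgeR adjusted p = 1.12e-10), and IFNGR2, a subunit of that receptor, rose 1.90-fold (log2 fold change 0.93, edgeR adjusted p = 3.13e-08). IFNLR1, named here after its values were seen, was at 0.367, 0.286 and 0.242 CPM in parental and at 0, 0.034 and 0 CPM in resistant libraries, where the largest count was 3. It was lower past the threshold (edgeR adjusted p = 0.000218), and no fold is given at such counts.

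Among 14 tested partners of sensing and signalling, 3 were higher and none lower past the threshold (21.4%, beside 42.7% of all genes tested). For 9 more, the adjusted p was at most 0.05 under the fold limit. IRF1 rose 1.93-fold (log2 fold change 0.95, edgeR adjusted p = 1.49e-05), and 22.9% of its exonic bases are shared with other annotated genes. RNF135, a ligase that activates RIG-I, was 1.38-fold higher (log2 fold change 0.47, edgeR adjusted p = 1.47e-05), under the limit.

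Of 30 further interferon-stimulated genes tested, 14 were higher, 7 were lower and 9 were not past the threshold. This is 70.0% past it, beside 42.7% of all genes tested (23.3% higher, 19.5% lower). LGALS3BP, a secreted glycoprotein, was at 13.4, 13.7 and 12.4 CPM in parental and 83.2, 73.8 and 68.0 CPM in resistant libraries. It rose 5.69-fold (log2 fold change 2.51, edgeR adjusted p = 4.54e-12). GBP2, a guanylate-binding protein, was at 1.83, 2.17 and 1.62 CPM in parental and 17, 17.4 and 14.6 CPM in resistant libraries. It rose 8.71-fold (log2 fold change 3.12, edgeR adjusted p = 2.19e-11). Both genes were far higher in every resistant library. The enzymes upstream of HERC5 in ISG15 conjugation, named here after their values were seen, differed in direction. The activating enzyme UBA7 rose 5.45-fold (log2 fold change 2.45, edgeR adjusted p = 1.41e-07), and the conjugating enzyme UBE2L6 fell 3.13-fold (log2 fold change −1.65, edgeR adjusted p = 1.75e-06).

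Of 6 inhibitors of interferon signalling, 1 was higher and none lower past the threshold (16.7%, beside 42.7% of all genes tested). The phosphatase PTPN6 rose 1.87-fold (log2 fold change 0.90, edgeR adjusted p = 4.32e-08), and PTPN2 had a log2 fold change of −0.52 (edgeR adjusted p = 6.92e-06), under the fold limit.

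**Figure D5:**
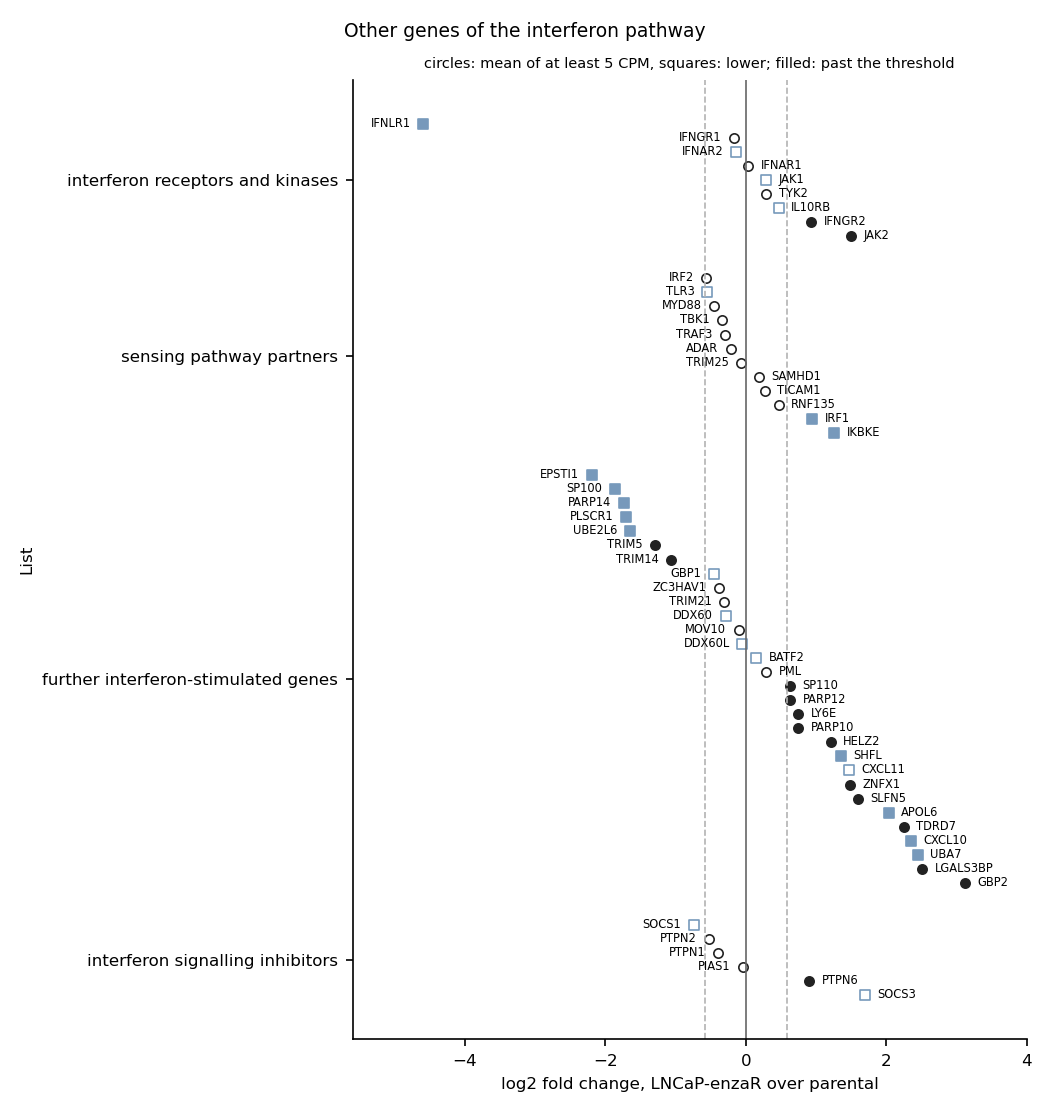
Log2 fold change (LNCaP-enzaR over parental) of tested genes of the wider pathway, by list (2 of the 59 are not drawn); circles have a mean of at least 5 CPM, squares less, filled symbols were past the threshold and dashed lines mark 1.5-fold. JAK2, GBP2 and LGALS3BP lie well to the right, the type I receptor subunits near 0, and IFNLR1 at the far left.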

How the data were processed

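The deposited file holds raw read counts per gene, which the authors made by trimming adapters with Cutadapt, aligning paired-end reads of TruSeq mRNA libraries to GRCh38.p13 with STAR and GENCODE v38, and counting with featureCounts. Strand and multi-mapping settings are not given in the sources used here. All columns belong to the 6 libraries, grouped by their titles.

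The analysis used edgeR 4.0.16 under R 4.3.3: filterByExpr (19711 genes, 99.96% of counts), TMM, a robust quasi-likelihood F-test of all 6 libraries without covariates, and Benjamini-Hochberg adjustment over all genes tested. The limits, an adjusted p of 0.05 and 1.5-fold, follow the study's methods, which used DESeq2 (1.42.0 here, as an alternative). CPM are counts per 1000000 per TMM-scaled library. Floors of 3 counts cover counting error only. Exon lengths, overlaps and shared 100-base windows came from GENCODE v44, in which 36 of the 42 members had the same coordinates.

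Members and lists were chosen with earlier results of these data known. Values per library are given for the well expressed members past the threshold with the highest and lowest log2 fold changes, for IRF3, IRF9, STAT2, MAVS, STING1 and CGAS, and for low members past it in families of neighbouring genes. Of the other lists, the 2 genes with the smallest p at 5 CPM or more are named, plus IRF1, IFNAR1, IFNAR2, JAK1 and TYK2. Others were added after their values were seen, and some that the rule takes are not reported here. The pairs of replicate numbers had correlations of −0.0652 to −0.00041 between their deviations from the group means, so no pairing was used.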

Additional observations from a re-analysis of the deposited data

How the results depend on the processing

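Of the 38 tested members, 29 kept their direction and their call in every alternative that tested them. The alternatives were other scalings (RLE, library totals, upper quartile), DESeq2, a replicate block, and no filter on low genes or a minimum of 10 counts per library. Tables of protein-coding genes or without mitochondrial genes, and leaving out each library, were also used. The 29 members held 19 of the 22 past the threshold, and IFI6, STING1 and IFITM3 were the other 3. The minimum of 10 counts tested 34 members and left out DDX58, IRF9, IFI27 and IFI44L. The call of IFI44L was therefore not examined under that minimum. The count of members past the threshold was 21 to 23 when a library was left out, 28 with no minimum fold and 17 at 2-fold. Of all 19711 genes tested, 13074 (66.3%) passed with no minimum fold and 5561 at 2-fold. With upper-quartile scaling, which shifted the median of all genes by 0.101 on the log2 scale and raised the share of higher calls from 54.5% to 60.9%, 6 well expressed members were higher past the threshold and their median log2 fold change was −0.059. Without a minimum fold, 7 of the 18 well expressed members were higher and 8 lower, beside 78.4% of all genes at this level in either direction. Of the 59 other pathway genes tested, 43 were then past the threshold instead of 28, beside 66.3% of all genes tested. Defining well expressed as at least 1 CPM gave 9 higher members and turned the median to 0.17, and at least 10 CPM left 3 lower members. These last changes come from the fewer or additional genes counted, and the larger counts without a minimum fold from the dropped limit. With upper-quartile scaling, the median of the well expressed members moved by about as much as that of all genes. IRF3, IFIT5 and ISG20 were the members that then became higher past the threshold. Leaving out a library gave medians of −0.18 to −0.11. The sign of CMPK2 turned with upper-quartile scaling (0.042), and that of BST2 with the same scaling (0.08), at least 10 counts (0.003), protein-coding genes (0.002) and on leaving out libraries (−0.29 to 0.15). Under the replicate block 21 members were past the threshold, 2 well expressed members were higher and 6 lower, with a median of −0.16, and 28 other pathway genes were called. IFI6 was the member whose call the block changed (0.58). At this depth, genes near 3 counts per library could not be compared between the lines.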
